A study of Mus musculus with 10 samples.

Results

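The windows that cover 51 imprinted genes of the mouse were followed in a DNA methylation study of allergic lung inflammation. The genes were a list of known imprinted genes and their neighbours in the same clusters, on 12 chromosomes, and a window belonged to a gene when it overlapped the RefSeq span of that gene, on the GRCm38 assembly, extended by 5 kb on each side. This gave 1059 of the 446336 windows of the deposited table, each 1000 bp long with a step of 500 bp, so that successive windows share CpGs and calls. A call is 1 read of 1 CpG, and the methylation level of a window is the percentage of its calls that were methylated. Of the 1059 windows, 1016 held at least 20 calls in every mouse, compared with 421759 of all windows. These were spread over 50 genes, because the 2 windows of Slc22a2, an organic cation transporter gene, did not reach that depth in every mouse.

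Lung DNA came from 10 female BALB/c mice, 8 weeks old when bought, and was profiled with the SureSelect Methyl-seq capture, in which bisulfite changes unmethylated but not methylated cytosines and RNA probes select part of the genome. The saline group (n = 3) was given saline in place of allergen. The OVA-induced group (n = 3) was sensitized with 50 µg of ovalbumin (OVA) in alum and challenged through the nose with 25 µg of OVA for 4 days. The DSE-treated group (n = 4) had the same sensitization and challenge and was given 200 mg/kg of D. sophia seed extract (DSE) by mouth for 7 days, so that both latter groups were OVA-exposed and the saline mice were the same in 2 of the 3 comparisons. The mice of the DSE-treated group carry the word Herb in the sample labels. The model is one of acute allergen challenge, and a whole lung was measured, so a shift in the share of a cell type and a shift of methylation inside cells cannot be told apart.

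Imprinted genes are expressed mainly from one parental copy. At most imprinted clusters a control region, rich in CpGs, is methylated on one parental copy in the germ line and keeps that mark in body tissues, so that about one copy in every pair carries methylation. ZFP57, a zinc finger protein, binds a methylated hexamer in these regions and recruits TRIM28 and partners that keep the mark, and CTCF, an insulator protein, binds the unmethylated copy at some clusters, best known at H19 and Igf2. The files do not separate the parental copies, so a level near 50% was read here only as a level, and not as methylation of one copy.

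The sequences below are from 7 stretches near 50% and show the DNA in which the levels were measured. For Peg3, Mest, Nnat, Grb10 and Plagl1 the 120 bases that held the most copies of the ZFP57 hexamer and touched no messenger RNA exon are shown, with TGCCGC, in either orientation, in capitals. For H19 and Meg3, whose control regions are methylated on the paternal copy, capitals mark instead the short core GGNGGCAG of the CTCF site, in either orientation, and mark no other motif. All are on the plus strand of GRCm38, 5′ to 3′: Peg3 at chr7:6730057-6730176 (intron), Mest at chr6:30738336-30738455 (intron), Nnat at chr2:157560308-157560427 (intron of Blcap), Grb10 at chr11:12026179-12026298 (intron), Plagl1 at chr10:13091025-13091144 (intron), H19 at chr7:142580253-142580372 (upstream of the gene) and Meg3 at chr12:109542677-109542796 (intron).
Peg3: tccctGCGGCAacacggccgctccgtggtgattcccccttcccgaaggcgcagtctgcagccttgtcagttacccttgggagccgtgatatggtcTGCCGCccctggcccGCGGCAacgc
Mest: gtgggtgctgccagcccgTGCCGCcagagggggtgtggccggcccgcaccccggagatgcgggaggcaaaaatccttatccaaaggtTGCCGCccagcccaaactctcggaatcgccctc
Nnat: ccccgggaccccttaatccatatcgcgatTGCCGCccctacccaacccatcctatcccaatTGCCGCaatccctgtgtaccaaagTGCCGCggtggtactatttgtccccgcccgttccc
Grb10: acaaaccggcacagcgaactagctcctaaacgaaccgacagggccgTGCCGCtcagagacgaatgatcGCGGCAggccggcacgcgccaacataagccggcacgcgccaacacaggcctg
Plagl1: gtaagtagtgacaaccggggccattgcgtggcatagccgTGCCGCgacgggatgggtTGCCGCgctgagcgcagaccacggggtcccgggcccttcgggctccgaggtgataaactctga
H19: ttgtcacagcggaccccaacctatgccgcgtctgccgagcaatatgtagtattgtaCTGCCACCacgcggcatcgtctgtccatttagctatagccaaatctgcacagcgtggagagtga
Meg3: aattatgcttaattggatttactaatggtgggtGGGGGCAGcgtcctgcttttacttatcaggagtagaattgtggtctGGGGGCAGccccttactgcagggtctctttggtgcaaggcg

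The number of calls, the level and the spread were taken first over all member windows. Total calls per mouse ranged from 306656737 to 410836272 over the whole table, and the median member window had 440 to 644 calls. No 2 mice of a group held the same calls, since the mean chi-square of their windows was 2.64 to 3.76. Promoter windows of leukocyte genes, found for 9 of the 14 listed, had mean levels of 49.4 to 52.5% in saline, 43.4 to 47.4% in OVA-induced and 42.4 to 45.3% in DSE-treated mice. Those of lung cell genes, found for 7 of 12, were at 25.1 to 28.8% in all mice. The mean over the leukocyte promoters was thus lower in each OVA-exposed mouse than in any saline mouse, although single genes differed, with Ptprc at 55.3, 43.5 and 39.6% and Cd79a at 58.4, 59.2 and 61.6% in the same order of groups. The part of this in the group differences below was not tested.

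Windows near 50% were frequent in the imprinted genes where CpGs were dense. A window was called near 50% when the mean of the 3 group means lay from 40 to 60%. In the imprinted genes 272 of 1016 windows (26.8%) were near 50%, against 74547 of 421759 (17.7%) in the whole table, and 41 of the 51 genes had at least 1 such window. Below 20 CpGs per window the shares were alike, at 21.1% of the member windows and 20.7% of windows outside the imprinted genes. From 20 CpGs upwards 133 of 357 member windows (37.3%) were near 50%, against 10238 of 110910 outside (9.23%). At 40 or more CpGs the shares were 62 of 155 (40%) and 656 of 38067 (1.72%). Windows of that density outside the imprinted genes were mostly unmethylated, with a median level of 2.18% and 86.8% of them under 20%, whereas the member windows had a median of 31%. These shares describe overlapping windows of a chosen list and were not tested.

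**Figure D1:**
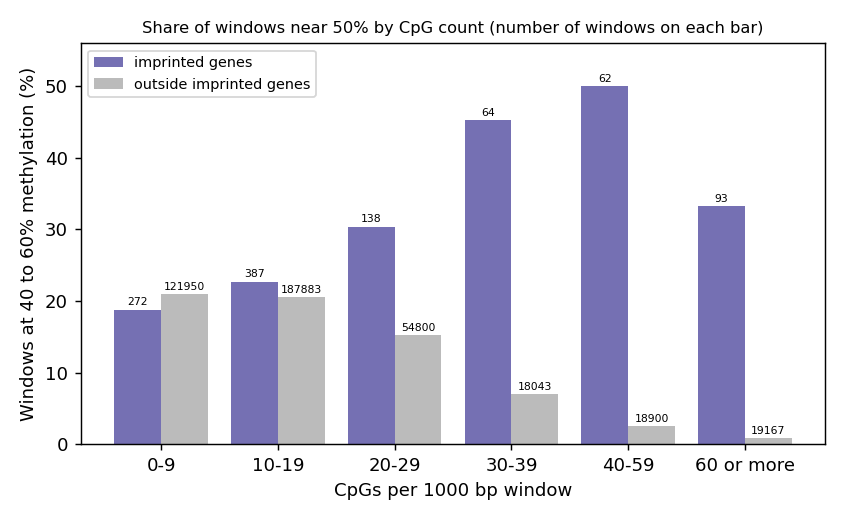
Share of windows at 40 to 60% methylation (y axis, percent) against the number of CpGs per 1000 bp window (x axis, 6 classes) in imprinted genes (purple) and outside them (grey), with the number of windows on each bar. In the class of 40 to 59 CpGs the share was 50% in imprinted genes and 2.57% outside.

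The same held at start sites. Of the 132 member windows over a RefSeq transcript start, 40 (30.3%) were near 50% and 50 (37.9%) were under 20%. Of all 36117 start-site windows, 1982 (5.49%) were near 50% and 27462 (76%) were under 20%.

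Successive windows near 50% were then joined into stretches of at least 3 windows, which gave 28 stretches in 30 genes. Of these, 19 held a mean of at least 20 CpGs per window and are called CpG-dense here, and 9 are called CpG-poor. The CpG-dense stretches were 2000 to 7500 bp long. Their levels, averaged over the groups, lay from 46.6% at Rian to 54.1% at Nnat/Blcap, with a median of 49.4%. Of their 190 values (19 stretches in 10 mice), 186 lay from 40 to 60%. The lowest value was 37.5% at Rian in OVA-induced mouse 2 and the highest 70.1% at Cdh15 in DSE-treated mouse 2. The CpG-poor stretches, with a median level of 55.9%, ranged more widely, and 78 of their 90 values lay from 40 to 60%. A level inside the band is what the rule asked for, while the spread of single mice around it is not.

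**Figure D2:**
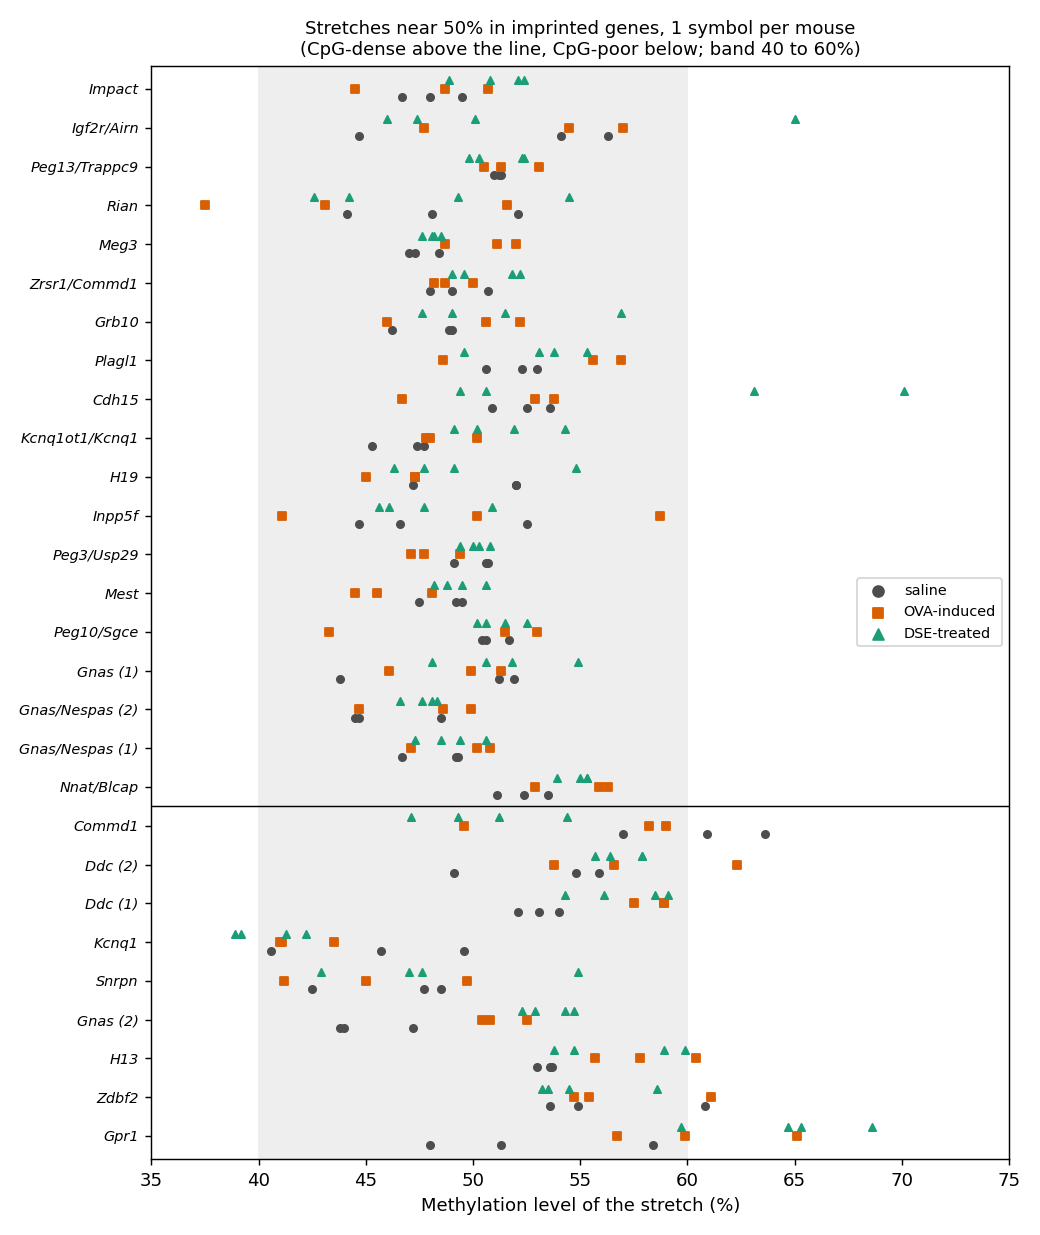
Methylation level (x axis, percent) of the 28 stretches near 50% in imprinted genes (y axis), with 1 symbol per mouse for saline (circles, n = 3), OVA-induced (squares, n = 3) and DSE-treated (triangles, n = 4) mice, and the band of 40 to 60% in grey. The CpG-dense stretches above the line gather near 49.4%, and Cdh15, Igf2r/Airn, Inpp5f and Rian have the widest ranges among them, of 23.4, 20.3, 17.6 and 17 points.

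Several stretches with a small spread between mice lay at genes methylated on the maternal copy. The stretch between Peg3, a zinc finger gene, and its divergent partner Usp29, a ubiquitin protease gene, spans chr7:6726501-6732500 and covers both start sites. Its levels were 49.1, 50.7 and 50.6% in saline, 47.7, 47.1 and 49.4% in OVA-induced and 50.8, 50.3, 49.4 and 50% in DSE-treated mice. The SD within groups, pooled over the 3 groups, was 0.882 percentage points, on 9236 to 12939 calls per mouse. No mouse was more than a few points from 50%. Peg13, a noncoding RNA gene inside an intron of Trappc9, had a stretch at chr15:72808001-72812000 over its start site with 49.8 to 53.1% in all 10 mice and an SD of 1.14 points. Nnat, which encodes the membrane protein neuronatin and lies inside an intron of Blcap, had a stretch at chr2:157559501-157561500 with 51.1 to 56.3%. Zrsr1, an intronless gene inside Commd1, had a stretch at chr11:22971001-22974000 with 48 to 52.2%. Mest, which encodes a protein of the hydrolase family, had one of the longest stretches, 5500 bp at chr6:30735001-30740500, with 44.5 to 50.6%. In these 5 stretches the lowest and the highest of 10 mice were 3.33 to 6.08 points apart.

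Gnas, which encodes the stimulatory G protein alpha subunit, held 3 CpG-dense stretches. At chr2:174283001-174289000, in which Nespas is transcribed antisense to Gnas, levels ranged from 46.7 to 50.8%. At chr2:174294001-174301500, the longest of all stretches with 7500 bp and 358 CpGs, they ranged from 44.5 to 49.9%. At chr2:174326001-174329000, just before the start of the main Gnas transcript, they ranged from 43.8 to 54.9%. Beyond that stretch the level dropped within a few windows to between 0.604 and 1.25%, so the DNA near 50% ended at an unmethylated promoter.

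Stretches at further genes with a maternal germline mark had similar levels, with more spread than the stretches described before Gnas. The Gnas stretches were not assigned to a parental copy here. The Peg10/Sgce stretch (chr6:4746001-4750000), between a retrotransposon-derived gene and the epsilon-sarcoglycan gene, had 50.2 to 53% in 9 mice and 43.3% in OVA-induced mouse 1. The Kcnq1ot1 stretch (chr7:143294501-143297500), at the start of a noncoding RNA that silences its neighbours in cis, had 45.3 to 54.3%. Plagl1, a zinc finger transcription factor gene, had 48.6 to 56.9% (chr10:13090001-13092500). Grb10, whose product restrains insulin and IGF signalling, had 46 to 56.9% (chr11:12025001-12027500). This stretch was internal, and the start of the longest Grb10 transcript was at 3.12%. Impact, a gene for a regulator of translation, had 44.5 to 52.4% on chromosome 18. Inpp5f, a phosphoinositide phosphatase gene with an internal start site in the stretch (chr7:128687001-128689000), had 41.1 and 58.7% in OVA-induced mice 2 and 3, and the other mice lay between. At Igf2r/Airn, a growth factor clearance receptor gene and its antisense RNA, the stretch (chr17:12740501-12743000) had 44.7 to 57% in 9 mice and 65% in DSE-treated mouse 3, on 1703 to 2692 calls. Its SD of 7.1 points was the largest among the CpG-dense stretches.

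At the paternally methylated genes, H19, a noncoding RNA gene, had a stretch upstream of it (chr7:142579501-142582000) with 47.2, 52 and 52% in saline, 45, 47.3 and 47.3% in OVA-induced and 49.1, 54.8, 47.7 and 46.3% in DSE-treated mice. The groups overlapped in each comparison. Meg3, another noncoding RNA gene, had a stretch over its start site (chr12:109540001-109544000) with 47 to 52%. The germline control region that Meg3 shares with Dlk1 lies farther upstream than the windows used here reach, as does that of Rasgrf1. The start of Dlk1, a Notch ligand-like gene, was at 14% and that of Rasgrf1, an exchange factor gene, at 2.32%. Rian, a noncoding host of small nucleolar RNAs downstream of Meg3, had a stretch at chr12:109612001-109614000 that held only 814 to 1290 calls per mouse and an SD of 5.62 points.

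The stretches had edges. In the means over 10 mice, the level at Mest rose from 47.9% in the last window of the stretch to 85.5% in the next, 500 bp on. At Kcnq1ot1 it rose from 47.2 to 83.8%, and at Meg3 it fell from 84.5 and 69.9% to 51% at one side and rose again from 48.5 to 74.8% at the other. At H19 a pair of windows at 73.3% separated the upstream stretch from windows at 38.9 to 55.4% nearer the gene. At Peg3/Usp29 the rise was gradual, through 56.3 and 63.9 to 75%. The step was seen in every mouse at Mest and Kcnq1ot1.

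**Figure D3:**
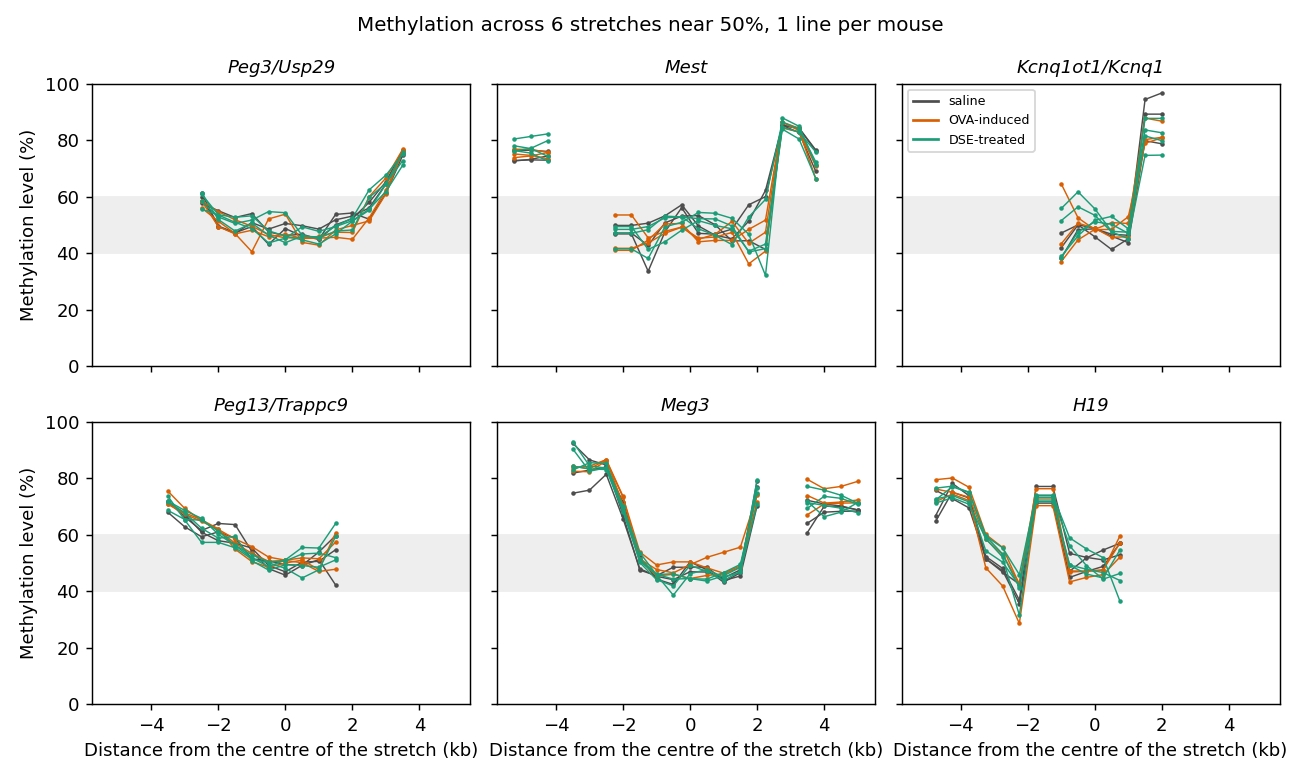
Methylation level (y axis, percent) of windows within 6 kb of the centre of 6 CpG-dense stretches (x axis, kb from the centre), with 1 line per mouse coloured by group, gaps where the table has no window, and the band of 40 to 60% in grey. The mean over mice steps from 47.9 to 85.5% at the right edge of Mest and from 47.2 to 83.8% at that of Kcnq1ot1.

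Of the 24 genes listed as carrying a germline mark, 20 lay at a stretch near 50% and 18 at a CpG-dense one. Of the 27 members outside that list, 10 lay at a stretch and 7 at a CpG-dense one. Genes that share a stretch were each counted, and the stretch of Meg3 is not its germline control region. Of the 4 germline genes without a stretch, Mcts2, a retrogene inside H13, and Nap1l5, a retrogene inside Herc3, each had a start-site window at 59.2%, with 53.7 to 62.8% and 52.8 to 65.7% over the mice. The others were Dlk1 and Rasgrf1, given above. Snrpn, a splicing factor gene whose start lies in the control region of the Prader-Willi cluster, had 33.1 to 43.4% at its start-site window nearest 50% (mean 37.7%), and its 1 stretch was CpG-poor and elsewhere in the gene. At Zdbf2 the 5′ end was at 92.3%, and its stretch was CpG-poor too. The stretch of Cdh15, the M-cadherin gene, lay in exons far from the start, which was at 21%.

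The 27 members outside the germline list were mostly low at their 5′ end. The window over the 5′ end was near 50% in 14 of 23 germline genes with such a window and in 2 of 21 of the others. It was under 20% in 3 and 13, and the medians were 49% and 15.5%. By the allele of expression, it was near 50% in 12 of 24 paternally expressed genes (median 48.6%) and in 2 of 13 maternally expressed ones (median 13.3%). Low starts included Phlda2, a placental growth restraint gene, at 3.74%, Ube3a, a ubiquitin ligase gene imprinted in neurons, at 3.11%, H13 at 1.06%, Blcap at 0.786%, Herc3 at 1.48%, Trappc9 at 1.16%, Kcnk9, a potassium channel gene, at 6.08%, and Dio3, a thyroid hormone deiodinase gene, at 4.33%. Those of the Prader-Willi cluster were in between, with Ndn at 16.5%, Peg12 at 15.5%, Magel2 at 24.4% and Mkrn3 at 26.7%. Cdkn1c, a cell cycle inhibitor gene, was at 31.5%. Igf2r, which is in the germline list and not among these 27, was at 39.9%. Igf2, the growth factor gene, was at 78.6% in a window of 7 CpGs at the 5′ end of its span. Its start-site window nearest 50% was at 36.3%, and the median over its windows was 13.5%. Rtl1, Rian and Mirg had no window over a start site. So the genes next to a control region mostly did not carry its level at their own 5′ end.

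The hexamer TGCCGC, counted on both strands, was in 53.4% of the 133 member windows near 50% with at least 20 CpGs (1.55 copies per window) and in 38.4% of their other windows of that density. It was in 23.9% of such windows near 50% outside the imprinted genes, in 33.2% of all windows with at least 20 CpGs and in 14.9% of all windows. All 19 CpG-dense member stretches held it, with 14 copies at the longest Gnas stretch, 12 at Mest and 1 each at Meg3 and Rian. Of 628 CpG-dense stretches near 50% outside the imprinted genes, 272 (43.3%) held it. Member windows held more CpGs (median 39 against 23 outside), and their stretches were longer, so more hexamers have room in them. The CTCF core GGNGGCAG was in 35.3% of the member windows near 50% with at least 20 CpGs and in 33.9% of their other windows of that density. It was in 40.1% of such windows near 50% outside, in 40.9% of all windows with at least 20 CpGs and in 34.5% of all windows. A match of these letters is not a bound site.

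CpG-dense stretches near 50% were not limited to the imprinted genes, since 628 lay outside them, 19 of which were on the X chromosome. The member stretches were longer, with a median of 3000 bp against 2000 bp, and 11 of 19 (57.9%) against 38 (6.05%) reached 3000 bp. They were denser, and 10 (52.6%) against 33 (5.25%) held 40 or more CpGs per kb. Their median SD within groups was 2.13 points against 2.91. Single windows near 50% with at least 20 CpGs spread more alike, with median SDs of 3.25 and 3.45 points on 1869 and 1005 calls per mouse, where counting of independent calls alone would give 1.16 and 1.58.

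Levels of the stretches were compared between groups with 1 value per mouse, the median over the 28 stretches. It was 49, 50.7 and 51% in saline, 50.1, 49.9 and 51.2% in OVA-induced and 49.7, 51.5, 52.4 and 50.1% in DSE-treated mice. The means were 50.2% ± 1.03 (SD, n = 3), 50.4% ± 0.716 (SD, n = 3) and 50.9% ± 1.26 (SD, n = 4), so that the groups overlapped throughout. By two-sided exact permutation tests over mice, OVA-induced differed from saline mice by 0.164 points (p = 0.9, n = 3 and 3), DSE-treated from OVA-induced mice by 0.543 points (p = 0.514, n = 4 and 3) and DSE-treated from saline mice by 0.706 points (p = 0.457, n = 4 and 3). In the CpG-dense stretches alone these were -0.798 (exact p = 0.6), 0.798 (exact p = 0.457) and 0.000235 points (exact p = 0.8). Counted stretch by stretch, the mean of DSE-treated mice was above that of saline mice in 22 of 28 stretches (median difference 1.2 points) and in 16 of the 19 CpG-dense ones (0.552 points), and that of OVA-induced mice in 17 (0.82 points) and 11 (0.49 points). DSE-treated mice were above OVA-induced mice in 14 and 11. Stretches are not replicates, and these counts were not tested. The smallest p these tests can give is 0.1 for 3 against 3 and 0.0571 for 3 against 4, so no single stretch could pass 0.05.

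Among the 19 CpG-dense stretches, the mice of the groups did not overlap in 2 for OVA-induced against saline, 3 for DSE-treated against OVA-induced and 2 for DSE-treated against saline (10.5, 15.8 and 10.5%). Of single windows in the whole table, 26.9%, 10.5% and 24% did not overlap in the same comparisons. Of the 628 CpG-dense stretches outside the imprinted genes, 60%, 5.41% and 56.1% did not. The median absolute difference of a stretch was 1.75, 2.11 and 0.948 points in the imprinted genes and 6.29, 1.51 and 6.64 points outside. By these measures of a stretch, the values were larger in the imprinted genes than outside only for DSE-treated against OVA-induced mice. That rests on few stretches and was not tested. Single windows near 50% with at least 20 CpGs went the other way in that comparison. In the imprinted genes 3.01% of them did not overlap, against 8.04% outside, with median absolute differences of 1.88 and 2.02 points.

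The separations were small. At Mest, DSE-treated mice (48.8, 50.6, 49.5 and 48.2%) were above OVA-induced mice (45.5, 44.5 and 48.1%) by 3.23 points. At Peg3/Usp29 they were above by 2.11 points, with the lowest DSE-treated and the highest OVA-induced mouse both at 49.4% when rounded. At Meg3 they were 2.5 points below, and OVA-induced mice (52, 48.7 and 51.1%) were above both saline mice (47, 48.4 and 47.3%) and DSE-treated mice (48.5, 48.2, 47.6 and 48.1%). At Kcnq1ot1 the order was saline (47.7, 47.4 and 45.3%), OVA-induced (50.2, 48 and 47.8%) and DSE-treated (49.1, 50.2, 54.3 and 51.9%), and saline mice overlapped neither other group. At Nnat/Blcap, DSE-treated mice (55, 53.9, 55.3 and 55.3%) were above saline mice (51.1, 52.4 and 53.5%) by 2.52 points. Each was at the smallest p that the exact test allows, which 10.5 to 26.9% of all windows also reached.

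CpG-poor stretches differed more. Their median per mouse was 51.4% ± 2.05 (SD, n = 3) in saline, 56% ± 1.63 (SD, n = 3) in OVA-induced and 54.8% ± 1.13 (SD, n = 4) in DSE-treated mice. The differences from saline mice were 4.53 points (exact permutation p = 0.1) and 3.39 points (exact permutation p = 0.0571), each the smallest p possible. At Gpr1, a chemerin receptor gene beside Zdbf2, levels were 48, 51.3 and 58.4% in saline, 59.9, 65.1 and 56.7% in OVA-induced and 59.7, 64.7, 65.3 and 68.6% in DSE-treated mice. At Commd1, a copper metabolism gene, they were 63.6, 57 and 60.9%, then 58.2, 59 and 49.6%, then 51.2, 47.1, 49.3 and 54.4%, so that DSE-treated mice were 10 points below saline mice. In DSE-treated against saline mice 6 of the 9 stretches were higher and 3 lower.

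Windows were next called one by one with the thresholds of the study, 0.01 for the adjusted p and 10 points for the difference, here applied to a likelihood ratio test on pooled calls with Benjamini-Hochberg adjustment in windows with at least 20 calls. In OVA-induced against saline mice 36 of 1041 member windows were hyper methylated, where 4.75% of all windows were, and 10 were hypo methylated, where 2.56% of all windows were. Among the members this was 3.46% and 0.961%. In DSE-treated against OVA-induced mice 10 of 1041 were hyper methylated (0.961%, against 0.898% of all windows) and 5 hypo methylated (0.48% against 0.725%). In DSE-treated against saline mice 45 of 1052 were hyper methylated (4.28% against 4.95%) and 22 hypo methylated (2.09% against 3.07%). The shares of the members lay near or below those of the whole table. Some counts moved when a single mouse was left out. That of hypo methylated windows in OVA-induced against saline mice rose whichever mouse was left out, to between 11 and 17. The 10 hypo methylated windows of OVA-induced against saline mice were 16 or 17 when saline mouse 3 or any one OVA-induced mouse was left out, and the 5 of DSE-treated against OVA-induced mice were 9 without OVA-induced mouse 3 and 8 without DSE-treated mouse 4. The calls fell in 24 of the 51 genes, and 27 had none, among them H19, Igf2, Kcnq1ot1, Peg3, Usp29, Mest, Nnat, Meg3, Impact and Peg13. No share of all genes stands beside this count, and genes with few windows had fewer chances of a call. In OVA-induced against saline mice, the genes just named had from 7 windows tested, at Kcnq1ot1, to 40, at Usp29. Ddc, with called windows, had 71.

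This test has no term for the spread between mice. With limma on M-values, the log2 ratio of methylated to unmethylated calls, no window of the table had an adjusted p below 0.05 in OVA-induced against saline mice (0%). An unadjusted p below 0.05 was found in 156 member windows (15%), and in 19.2% of all windows. In DSE-treated against OVA-induced mice 0.0894% of all windows and 0 member windows did, and the unadjusted p was below 0.05 in 82 member windows (7.88%) and in 9.66% of all windows. In DSE-treated against saline mice 4.59% of all windows and 39 of 1052 member windows did, among them 25 of the 67 called. An F test with a scale for overdispersion called no window in any comparison.

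The windows near 50% with at least 20 CpGs were called less often in the imprinted genes than outside in both comparisons with saline mice. In OVA-induced against saline mice 2 of 133 (1.5%) were called, against 21.1% of 10238 outside. In DSE-treated against saline mice 4 (3.01%) were, against 21.3%. In DSE-treated against OVA-induced mice the shares were alike, 2 (1.5%) against 1.68%. The limma p was below 0.05, unadjusted, in 7.52% and 9.77% of the member windows and in 31.7% and 39.2% of those outside for the comparisons of OVA-induced and DSE-treated with saline mice. These shares describe windows that overlap and were not tested. When the band of 40 to 60% was set only by the group that was not compared, 2 of 128, 2 of 136 and 4 of 129 member windows were called, against 22.1%, 1.38% and 22.9% outside. Leaving out DSE-treated mouse 1 raised the 4 to 10 (outside 25.5%), and leaving out saline mouse 3 or OVA-induced mouse 1 or 3 raised the first 2 to 4. In DSE-treated against OVA-induced mice the count was 0 without OVA-induced mouse 2, 1 without DSE-treated mouse 4, and 4 without DSE-treated mouse 1 or 3.

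**Figure D4:**
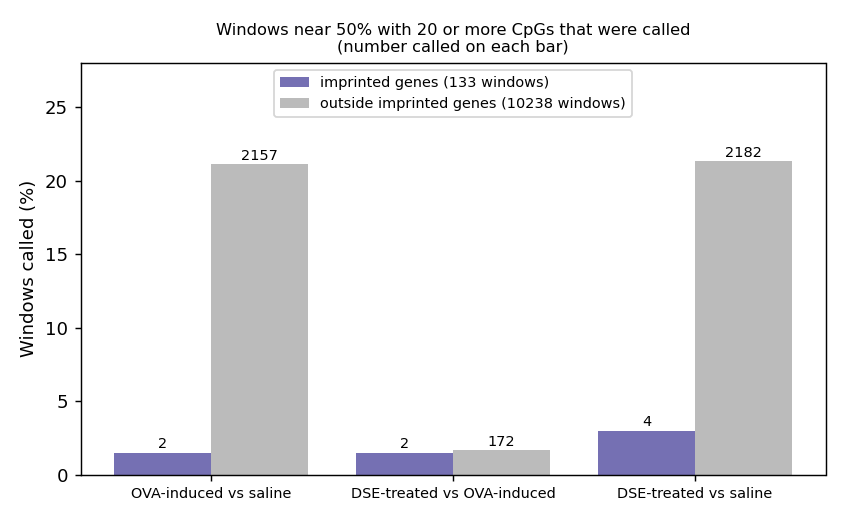
Share of windows near 50% with at least 20 CpGs that were called (y axis, percent) in each of the 3 comparisons (x axis), for imprinted genes (purple, 133 windows) and outside them (grey, 10238 windows), with the number called on each bar. The bars are at 1.5% and 21.1%, 1.5% and 1.68%, and 3.01% and 21.3%.

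Inside the CpG-dense stretches, 1, 2 and 0 of 116 windows were called in the 3 comparisons (0.862, 1.72 and 0%), against 27.7%, 1.11% and 27.7% of the 2081 windows in stretches outside. The 3 called windows were chosen for naming after their values were seen. One, at the edge of the Zrsr1/Commd1 stretch (chr11:22971001-22972000), had group means, in the order saline, OVA-induced, DSE-treated, of 41.7, 54.1 and 47.5%. The others were at Gnas/Nespas (chr2:174296501-174297500), with 48.9, 38.8 and 49.5%, and at the edge of Peg10/Sgce (chr6:4746001-4747000), with 40.7, 35.4 and 49%. The mice of the groups compared overlapped in all 3.

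The largest called differences in the imprinted genes lay outside the CpG-dense stretches. For each comparison the 5 with the largest difference, among those in which the mice did not overlap, are given here. An intronic region of Airn (chr17:12791501-12793500), which held 3 of the 5 in OVA-induced against saline mice, was lower in saline mice. In its middle window levels were 18.4, 17.2 and 14.5% in saline, 36, 38 and 36.8% in OVA-induced and 36.9, 31.9, 33.6 and 35% in DSE-treated mice, on 390 to 574 calls. The difference was 20.3 points for OVA-induced mice (limma adjusted p = 0.103) and 17.6 points for DSE-treated mice (limma adjusted p = 0.0252). Both OVA-exposed groups lay above all saline mice, and they overlapped one another.

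H13, which encodes a signal peptide peptidase and surrounds Mcts2, was also lower in saline mice in its last exons. At chr2:152707001-152708000, with 41 CpGs and 958 to 1502 calls, levels were 14.5, 15.1 and 21.3% in saline, 35.2, 37.4 and 38.8% in OVA-induced and 39.1, 39.2, 33.1 and 44.2% in DSE-treated mice. The differences from saline mice were 19.9 points (limma adjusted p = 0.103) and 22.1 points (limma adjusted p = 0.0258). Neighbouring windows up to chr2:152709000 were called as well, from 23.5 to 41.4% in the last of them for OVA-induced mice. Among the windows with the largest differences none but those of H13 had over 40 CpGs, and they lay at the far end of the gene from the unmethylated start.

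A second intronic window of Airn (chr17:12854001-12855000) was lower in OVA-induced mice than in both other groups, with 70.8, 77.4 and 62% in saline, 47.4, 42.5 and 51.8% in OVA-induced and 67.8, 52.4, 68.1 and 69.8% in DSE-treated mice. It was 21.2 points lower in OVA-induced than in saline mice (limma adjusted p = 0.108) and DSE-treated mice stood 16.9 points above them (limma adjusted p = 0.263), on 38 to 116 calls. An intronic window of Copg2, a coat protein gene next to Mest (chr6:30814501-30815500, the same calls as in the next window), had 63.9, 72.3 and 68.3%, then 95.5, 76.9 and 80%, then 57.3, 56.9, 62 and 47.8%. DSE-treated mice were 25.1 points below OVA-induced mice (limma adjusted p = 0.156), on 22 to 202 calls. A window upstream of Zrsr1 (chr11:22969001-22970000) had 75.5, 73.5 and 71.7%, then 93.2, 84.4 and 80.6%, then 69.6, 59.8, 72.8 and 71.4%. DSE-treated mice were 18.3 points below OVA-induced mice there (limma adjusted p = 0.226). In these 3 windows DSE-treated mice were on the saline side of OVA-induced mice, and limma called none of them. At Copg2 they went past the saline level, since all DSE-treated mice were below all saline mice, with a group difference of -12.6 points.

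In other windows DSE-treated mice stood above both other groups. In an intron of Gnas (chr2:174311501-174312500, 4 CpGs) levels were 43.4, 34.1 and 27.3% in saline, 26.2, 33.9 and 19.4% in OVA-induced and 70, 46.9, 67.7 and 45.9% in DSE-treated mice, 34.4 points above OVA-induced mice (limma adjusted p = 0.175) and 25.6 points above saline mice (limma adjusted p = 0.108). The 4 DSE-treated mice stood in 2 pairs. In an intron of Ddc, the DOPA decarboxylase gene (chr11:11819501-11820500), they were 17.9, 18.8 and 25.8%, then 12.8, 21.2 and 22%, then 38.2, 39.2, 43.5 and 38.3%. DSE-treated mice were above by 20.7 points against OVA-induced mice (limma adjusted p = 0.0776) and 18.1 points against saline mice (limma adjusted p = 0.0264).

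A window with a graded order was also seen. In an intron of Slc22a3, another organic cation transporter gene (chr17:12505001-12506000), levels were 67.2, 75.8 and 67.3% in saline, 58, 58.8 and 57.3% in OVA-induced and 48.6, 46.7, 47.5 and 51.8% in DSE-treated mice. DSE-treated mice were 21.1 points below saline mice (limma adjusted p = 0.0262). Upstream of Plagl1 (chr10:13087001-13088000, the same calls as in the next window), saline mice had 60, 46.1 and 45.5% and DSE-treated mice 64.6, 70.4, 71.7 and 74.1%, a difference of 21.4 points (limma adjusted p = 0.041). OVA-induced mouse 1 had under 20 calls there and was left out. The other OVA-induced mice had 81.2%, above all DSE-treated mice, and 44.2%, below all saline mice, so the order was not graded. This window lay 3 kb or less from the Plagl1 stretch, in which the 3 groups overlapped.

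**Figure D5:**
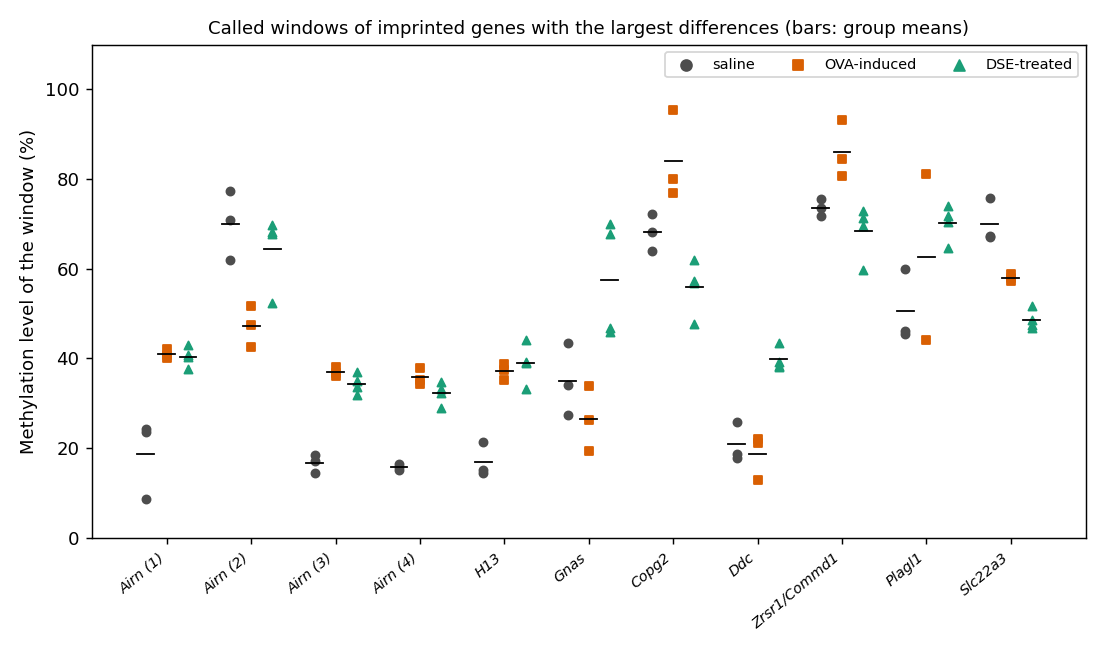
Methylation level (y axis, percent) of the called windows with the largest differences (x axis, by gene, with windows of the same calls shown once), with 1 symbol per mouse for saline, OVA-induced and DSE-treated mice and a bar at each group mean. At Airn (3) and H13 all saline mice lie at or below 21.3% and all OVA-exposed mice at or above 31.9%.

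Around the Igf2r/Airn stretch, differences of opposite sign were called within a few kb. At chr17:12744001-12745000 the means of saline, OVA-induced and DSE-treated mice were 29.6, 48.3 and 44.6%. The limma adjusted p was 0.103 for OVA-induced and 0.0275 for DSE-treated against saline mice. At chr17:12745501-12746500 the means were 57.4, 41.1 and 45.8%, with a limma adjusted p of 0.115 and 0.0497 in the same order. The stretch between 12740501 and 12743000 itself had 51.7, 53.1 and 52.1%. In Cdh15, an intronic region (chr8:122853001-122854000) was at 37.3, 45.5 and 52.6% (limma adjusted p = 0.03 for DSE-treated against saline), while the stretch in its exons was 52.3% ± 1.38, 51.2% ± 3.88 and 58.3% ± 10 (SD, n = 3, 3 and 4) and overlapped. Near Gpr1 (chr1:63181001-63182000) levels were 1.61, 3.45 and 19.8%. The limma adjusted p was 0.028 for DSE-treated against saline and 0.0908 for DSE-treated against OVA-induced mice.

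Genes that set or keep imprints, 12 in all, were counted in the same way over their spans. Among them were Zfp57, Zfp445, Trim28, Setdb1, Dnmt1, Uhrf1 and Ctcf. In the 3 comparisons 16 of 267 (5.99%), 3 of 267 (1.12%) and 20 of 270 (7.41%) windows were called, against 7.31%, 1.62% and 8.01% of all windows. Dnmt3a, a gene for a DNA methyltransferase, held 7 of the 16 and 10 of the 20, and 67 of the windows tested in each comparison. Trim28 and Dnmt1 had no called window in any comparison.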

How the data were processed

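Methylated and unmethylated CpG calls of 10 mice were used as deposited by the authors, who, per the labels, mapped capture bisulfite reads to mm10 (GRCm38). The labels' processing notes name cutadapt 1.10, Bismark 0.19.0 and methylKit 1.0.0, and the methods of the study give other versions of these tools. The deposited values are counts without normalization, with at least 10 calls per mouse and window. Sums of calls favour deeply read CpGs, and calls of the same molecule are not independent.

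A mouse entered a window with at least 20 calls, and a window was tested with at least 2 such mice per group, over all windows of the table. The main test was a logistic model with a likelihood ratio test (Python 3.11.15, scipy 1.17.1, pandas 2.3.3) and Benjamini-Hochberg adjustment over all windows tested, called at an adjusted p below 0.01 and 10 percentage points. The alternative with a term for the spread between mice was limma 3.58.1 in R 4.3.3 on M-values with a pseudocount of 1. The level of a stretch was taken from the summed calls of every other window, which do not overlap. At 20 calls a level of 50% has a Wilson 95% interval of 29.9 to 70.1%, and at 577 calls and 49.9% one of 45.8 to 54%, for counting error only. Nothing says whether mice shared cages or preparation days.

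The members, all gene lists and the tests were chosen with earlier results of these data known. The lists were of germline, paternally expressed, maternally expressed and marker genes and of genes that set or keep imprints. Named were the germline genes with their stretch or start-site window nearest 50%, the other members by their 5′ window, and per comparison the 5 called windows with the largest difference in which mice did not overlap. Further called windows, among them those in the CpG-dense stretches and at Igf2r/Airn, Cdh15 and Gpr1, were named after their values were seen. Gene spans, start sites, CpG counts and sequences came from the RefSeq GRCm38.p6 annotation and genome. Tried alternatives were other minimum calls, other bands, spans without the extension, all mice covered, windows that do not overlap, CpG-dense stretches only, an F test with a scale factor, limma, unweighted means, a difference of 20 points, a replicate block and each mouse left out. The band set by the group not compared, and the alternatives for windows near 50%, were chosen after seeing the data. The scripts were tested on simulated data. RNA-seq, histology and cell counts were not analysed here.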

Additional observations from a re-analysis of the deposited data

Results flagged for a closer look

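In 41 regions, the stretches near 50% and the called windows named above, the 4 DSE-treated mice were examined for a single distant value. In 1 the gap of that mouse to its neighbour, as a share of the whole range, passed Dixon's 95% critical value, which chance alone passes in about 1 of 20 groups. It was the intronic window of Airn at chr17:12854001-12855000, in which DSE-treated mouse 2 was at 52.4% and the other 3 were at 67.8, 68.1 and 69.8%, a share of 0.885. The saline and OVA-induced groups, with 3 mice each, were not examined in this way.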

How the results depend on the processing

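The call rests on a test without a term for the spread between mice. With an F test that has a scale factor, 0 member windows were called in every comparison and direction, also among those near 50% with at least 20 CpGs. With limma at an adjusted p below 0.01 they were 0 too. At an adjusted p below 0.05 and no threshold on the difference, limma gave 0 in OVA-induced against saline and in DSE-treated against OVA-induced mice, and 32 hyper and 7 hypo methylated windows in DSE-treated against saline mice. Of the windows near 50% with at least 20 CpGs, 2 passed in that comparison. With windows that do not overlap, which are about 1 in every pair, hyper and hypo methylated windows were 17 and 6 for OVA-induced against saline, 6 and 3 for DSE-treated against OVA-induced and 21 and 11 for DSE-treated against saline mice, and 131 windows were near 50%. With a difference of at least 20 points they were 4 and 1, 2 and 2, and 5 and 1. With a minimum of 50 calls, 3 windows were hypo methylated in DSE-treated against OVA-induced mice. The band of 45 to 55% left 173 windows near 50%, and that of 35 to 65% gave 50 stretches.

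The difference between OVA-induced and saline mice in the median over the stretches of each mouse turned its sign, to -0.00604 points with a minimum of 50 calls, -0.798 in CpG-dense stretches only, -0.37 without saline mouse 1 and -0.69 without OVA-induced mouse 3, and the cause was not tested. With each mouse left out in turn, it ranged from -0.69 to 0.51 points, that of DSE-treated against OVA-induced mice from 0.183 to 1.06 and that of DSE-treated against saline mice from 0.0827 to 1.12. Hyper methylated windows then ranged from 29 to 48, 7 to 11 and 39 to 57, and hypo methylated windows from 11 to 17, 4 to 9 and 17 to 25, in the order of the comparisons above. Called windows near 50% with at least 20 CpGs ranged from 2 to 4, 0 to 4 and 3 to 10, and 26 to 30 stretches, 268 to 275 windows near 50% and a median SD of 3.55 to 3.87 points were found. Over all results and alternatives, 162 values kept their direction and side of the threshold or, for counts, stayed within 1.5 times. Another 54 moved past that and 4 turned their sign. For the median differences over stretches the exact p could not fall below 0.05 in any setting. Their side of that threshold was thus fixed in advance, and only their sign could change.

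Replicate numbers were shared by the groups, but mice with the same number did not deviate together, with correlations of -0.0273 to 0.0785 against -0.0574 to 0.043 for other numbers. With a replicate block, hyper and hypo methylated windows were 34 and 12, 9 and 7, and 39 and 22, and 1 window near 50% with at least 20 CpGs was called in DSE-treated against OVA-induced mice. Depth limits single windows more than stretches, since the median member window held 440 to 644 calls per mouse and a CpG-dense stretch at least 814.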

Other observations

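The longest CpG-dense stretches near 50% outside the imprinted genes, which were counted but not described above, are given here by gene. The longest autosomal one was at Prkce, a protein kinase C gene (chr17:86301501-86306500), with 50% ± 0.978 in saline (SD, n = 3), 56% ± 1.36 in OVA-induced (SD, n = 3) and 54.8% ± 1.87 in DSE-treated mice (SD, n = 4). A stretch at Jak3, a cytokine receptor kinase gene of lymphocytes, and Insl3 (chr8:71685501-71690000) was at 42.2% ± 1.67, 53.5% ± 4.92 and 55.5% ± 4.34. At Mir142, a microRNA gene of blood cells (chr11:87755501-87759000), levels were 66.1% ± 4.88, 47.6% ± 5.16 and 46.2% ± 1, and at Shank3, a synaptic scaffold gene (chr15:89556001-89559500), they were 37% ± 1.48, 50.9% ± 3.25 and 52% ± 2.08.

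The others of the 10 longest were at Apc2, Hoxb3, n-TWcca4, Plk2, Ezr and Tubb5. Their levels, averaged over the groups, were 44.8 to 56.2%, and single mice ranged from 37%, at Plk2, to 63.2%, at Hoxb3. At Ezr, which links membrane to the cytoskeleton, saline mice were at 51.4% ± 1.1 and OVA-induced mice at 41.5% ± 2.18. The level of each of these stretches chose it, so these values are a description.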
